A study of Homo sapiens with 7 samples.

Results

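OCT1-only regions are places in the genome where OCT1 (POU2F1) was called by ChIP-seq and none of the 5 other factors mapped in the same cells had a peak. They were selected on the peak calls themselves: overlapping peaks of the 6 lists (at least 1 bp in common, chromosomes 1 to 22 and X) were merged into 111561 union regions, and a region was kept when it held OCT1 and no other list. This gave 4921 regions, 4.41% of the union regions and 22.6% of the 21729 regions with OCT1. Each of the 4921 held 1 OCT1 peak, so they are 20.9% of the 23571 OCT1 peaks, and the other 18650 OCT1 peaks are called shared below. The cells were OCI-Ly7, an established line from a diffuse large B-cell lymphoma, grown in suspension without any treatment or genetic change named in the labels. The other antibodies were against OCA-B, OCT2, EP300, CREBBP and MED1, and input DNA from the same line served as the control.

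OCT1 and OCT2 (POU2F2) are POU-domain proteins that read the octamer sequence, OCT1 in most cell types and OCT2 mainly in B cells and neurons. OCA-B (POU2AF1) is a lymphoid coactivator that docks on either of them at DNA. MED1 belongs to the Mediator complex, which links activators to RNA polymerase II, and CREBBP and EP300 are related acetyltransferases. OCT1 is known for its sites at small nuclear RNA and histone H2B genes, and it has also been tied to stress and metabolic genes.

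Each factor had 1 library, so no value here has a replicate check, and the intervals given are exact (Clopper-Pearson) 95% binomial intervals that cover counting error only. The OCT1 library held 22503613 tags after duplicate filtering, within the range of the others (12357450 for CREBBP to 27885791 for EP300). Of 7 B cell marker genes, all 7 had an OCA-B, OCT2, MED1, CREBBP and EP300 peak within 1 kb, and 6 an OCT1 peak. Of 5 myeloid markers 1 had an OCT2 peak and none a peak of another list. Of 5 erythroid markers 1 had a peak in each list except OCT1, and of 5 T cell markers 1 had a peak in each list except EP300, which had 2. One of the T cell markers, CD3G, had an OCT1-only region. Because absence from a list depends on that list's depth and antibody, an OCT1-only region is one where the other factors were not called, not one shown to lack them.

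OCT1-only regions lay mainly at the ends of genes. A gene boundary here is the sequence up to 1 kb from the start or the end of a gene, protein-coding or lncRNA, and it held the summit of 2686 of the 4921 regions (54.6%, 53.2 to 56.0). Another 1170 (23.8%) lay inside a gene and 1065 (21.6%) between genes. Shared OCT1 peaks lay at gene boundaries in 36.1% (35.4 to 36.8), inside genes in 42.1% and between genes in 21.7% of cases, so the share between genes was about the same and the excess at boundaries came with fewer summits inside genes. The difference depended on how far apart another list had to be. Where no other peak was allowed within 1000 bp, 2266 OCT1 peaks qualified and 29.0% of them were at gene boundaries, against 41.1% of the rest, which turns the order. Of the 2656 OCT1-only regions with another peak within 1000 bases, 76.4% were at gene boundaries.

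Among classes held by a single list, the boundary share of OCT1-only regions was the highest of the 6. It was 34.7% for OCA-B-only (3938 regions), 18.5% for CREBBP-only, 18.2% for MED1-only, 8.88% for OCT2-only (14315) and 8.87% for EP300-only regions (24945). No interval of these 5 reached that of OCT1-only regions. Peaks in OCT1 and OCA-B without another list were at boundaries still more often, in 74.7% (71.6 to 77.7) of 803 peaks. Peaks in OCT1 and OCT2 without another list were there in 9.88% (7.76 to 12.4) of 688 peaks, close to the OCT2-only share. The lists differ in length and depth, and the part of these differences in the shares was not tested. The ranking is for the rule of 1 common base. With no other peak within 250 bp the OCT1-only share was 44.0%, and within 1000 bp it was 29.0%. The other classes were not recounted under those rules.

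**Figure D1:**
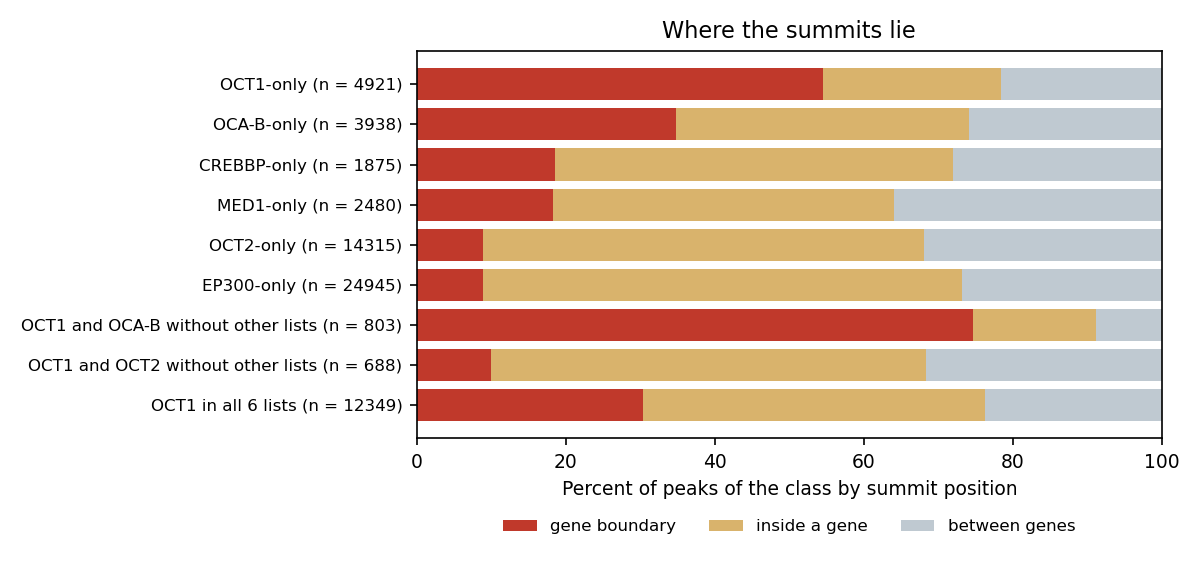
Stacked bars give the percent of peaks of each class (rows, number of peaks in brackets) whose summit lies at a gene boundary, inside a gene or between genes. OCT1-only regions reach 54.6% at gene boundaries, above the other 5 single-list classes and below OCT1 peaks shared with OCA-B alone.

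Few of the promoters in the class carried the sequence that OCT1 is known to read. Of the promoter windows in RefSeq (GRCh38.p14, 250 bases before to 50 after a gene start), 1796 contained an OCT1-only summit, and only 12 of them held the octamer ATGCAAAT on either strand (0.668%, 0.346 to 1.16). The background was 1.77% of all 34961 windows. A summit can lie in more than 1 window, so the windows are not all separate cases. With 1 window kept per OCT1-only peak, 11 of 1383 held the octamer (0.795%). The motif shares therefore describe 1383 of the 4921 OCT1-only peaks. Intervals over windows, here and below, may be too narrow. The octamer was in 154 of 4961 windows with a shared OCT1 summit (3.10%, 2.64 to 3.63), in 3.76% of the 2524 windows with OCT1 in all 6 lists, and in 13 of 96 windows with an OCT2-only summit (13.5%, 7.41 to 22.04). It was as scarce with an OCA-B-only summit (1 of 195, 0.513%, 0.0130 to 2.82) and with an EP300-only summit (1 of 171, 0.585%, 0.0148 to 3.22) as with an OCT1-only summit, at wider intervals. MED1-only and CREBBP-only summits lay in 9 and 8 windows, none with an octamer. The 6 octamer windows with the highest OCT1 fold enrichment, which is the tag pileup over that of the control, are printed 5′ to 3′ on the strand of the gene, with the octamer in capitals and up to 40 bases on each side. They are shown as the direct matches to the known OCT1 site within the class.
JUND: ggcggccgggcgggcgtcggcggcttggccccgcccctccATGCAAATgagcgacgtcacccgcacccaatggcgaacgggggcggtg
CHD9: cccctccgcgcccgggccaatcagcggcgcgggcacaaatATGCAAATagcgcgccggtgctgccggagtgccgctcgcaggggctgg
NT5C: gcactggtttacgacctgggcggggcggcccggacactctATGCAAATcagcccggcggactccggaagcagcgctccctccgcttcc
LOC124901118: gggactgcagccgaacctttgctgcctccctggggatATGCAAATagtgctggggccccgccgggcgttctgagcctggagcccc
NRARP: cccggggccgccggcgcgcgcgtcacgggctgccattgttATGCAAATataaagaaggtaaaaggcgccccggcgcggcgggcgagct
MTA2: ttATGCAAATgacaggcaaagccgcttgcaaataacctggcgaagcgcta

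The JUND stretch lies at chr19:18281675-18281762 on the minus strand, and JUND encodes a subunit of the AP-1 transcription factor. Its OCT1 fold was 20.7, the highest of the 12, and the octamer lay 4 bp from the summit. CHD9 (chr16:53130838-53130925, plus strand), a chromodomain helicase gene, had a fold of 17.3 with the octamer 26 bp from the summit. NT5C (chr17:75131762-75131849, minus strand), a nucleotidase gene, had a fold of 16.2 with the octamer 3 bp away. In the lncRNA gene LOC124901118 (chr5:154190245-154190329, minus strand) the fold was 14.0 and the distance 17 bp. NRARP (chr9:137302272-137302359, minus strand), a target and attenuator of Notch signalling, had a fold of 13.3 with the octamer 10 bp away. MTA2 (chr11:62602066-62602115, minus strand), which encodes part of the NuRD complex, had a fold of 12.4 with the octamer 2 bp away, and its stretch is short because it starts at the edge of the window. These 6 octamers read in the direction of the gene, as did that of CNNM4, while the other 5 of the 12 read in reverse.

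The other 6 octamer promoters were those of SUGP2, CNNM4, F8A2, F8A3, MIR210HG and ITPR3, with folds from 5.01 (ITPR3, an inositol trisphosphate receptor gene) to 7.94 (SUGP2). F8A2 and F8A3 are near-identical copies, so the reads behind their peaks are hard to assign to one of them. The octamer was within 50 bp of the summit in 10 of the 12 promoters, with a median distance of 21.5 bp. Shared OCT1 promoters with an octamer were similar in this, with 114 of 154 within 50 bp and a median of 23.5 bp. The median OCT1 fold was 10.1 in the 12 OCT1-only promoters with an octamer and 6.83 in the 1784 without one. Where the octamer was present, it therefore stood close to the summit, but it was present in few of them.

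OCT1-only promoters were rich in G and C. The median GC content of the 1796 windows was 70.7% (quartiles 67.7 and 73.7) with a median of 33 CpG dinucleotides, against 62.7% and 25 for shared OCT1 windows and 58.7% and 14 for all windows. None of the 1796 had a GC content below 50%, 44 were between 50 and 60%, 716 between 60 and 70%, and 1036 at 70% or above. An octamer has few G and C bases, so the comparison was repeated within GC classes. At 70% GC or above, the octamer was in 0.965% of OCT1-only (0.464 to 1.77), 2.26% of shared (1.27 to 3.70) and 0.407% of windows without an OCT1 summit (0.255 to 0.616). Between 60 and 70% GC the shares were 0.279%, 1.49% and 0.586%. OCT1-only windows were below shared windows in both classes, with overlapping intervals at 70% or above and separate ones between 60 and 70% (0.0338 to 1.01 against 1.06 to 2.03). Windows with a common summit were counted separately within GC classes, so this narrow gap between intervals is uncertain. Against windows without OCT1 they were above at the highest GC content and below between 60 and 70%, in each case with overlapping intervals.

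Motifs of general promoter factors were counted in the same windows. The SP1 motif GGGCGG was in 82.9% of OCT1-only windows (81.0 to 84.6), 69.2% of shared and 45.0% of all windows. At 70% GC or above, however, it was in 91.3% of OCT1-only, 94.4% of shared and 92.8% of windows without OCT1, so no excess was seen there. Between 60 and 70% GC the shares were 72.2% (68.8 to 75.5), 77.6% (75.9 to 79.2) and, without OCT1, 61.5% (60.3 to 62.8). The ETS motif CCGGAAG was in 26.6% of OCT1-only, 26.2% of shared and 10.3% of all windows, and at 70% GC or above in 26.2% (23.5 to 28.9), 18.7% (15.8 to 21.9) and, without OCT1, 10.4% (9.60 to 11.2). Between 60 and 70% GC it was in 27.9%, 28.8% and 10.2%, and between 50 and 60% in 7 of 44 OCT1-only windows (15.9%, 6.64 to 30.1), 28.2% of shared windows and 7.55% of those without OCT1. It was thus above windows without OCT1 in both higher classes, and above shared windows at 70% or more alone. The NFY motif CCAAT was in 36.7% of OCT1-only, 45.4% of shared and 34.6% of all windows. At 70% GC or above it was in 33.6%, 36.05% and, without OCT1, 18.9%. The NRF1 motif TGCGCATGC was in 5.51%, 4.45% and 1.57% of OCT1-only, shared and all windows. The CRE motif TGACGTCA was in 4.90%, 4.86% and 1.85%, the YY1 motif AAGATGGC in 5.79%, 8.04% and 2.89%, and the USF motif CACGTG in 11.9%, 12.1% and 7.27%. The AP-1 motif TGANTCA (1.34%, 4.13% and 7.68%) and the TATA motif TATAAA (2.06%, 4.72% and 11.5%) were scarce, as were MORE-type matches ATGCATAT (0.111%, 0.161% and 0.543%). All were searched on both strands, the matches may overlap, and a match is a description of the sequence and not a bound site. Only the octamer, SP1, ETS and NFY motifs were compared within GC classes. The shares of the other motifs are not adjusted for the GC content of the windows.

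**Figure D2:**
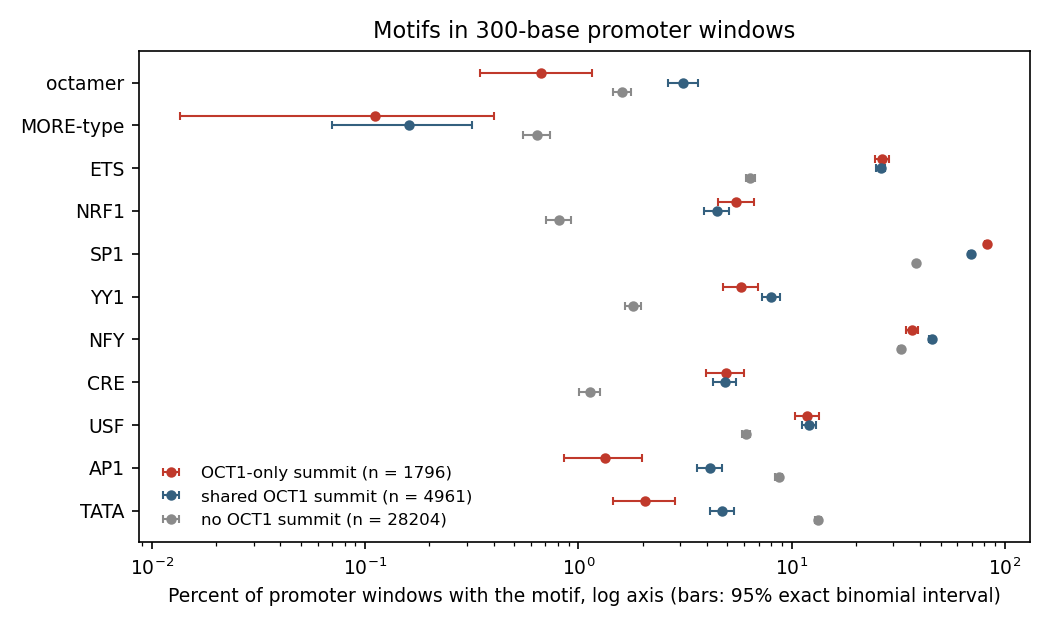
Points give the percent of 300-base promoter windows with each motif on a log axis, for windows with an OCT1-only summit, a shared OCT1 summit or no OCT1 summit, with exact 95% binomial intervals. The octamer point of OCT1-only windows (0.668%) lies below both others, while ETS, NRF1 and CRE points lie with those of shared windows. The points are not adjusted for GC content, and windows with a common summit are counted separately, so the intervals may be too narrow. At 70% GC or above the octamer was in 0.965% of OCT1-only windows and 0.407% of those without OCT1. Between 60 and 70% GC it was in 0.279% and 0.586%, with overlapping intervals in both GC classes.

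The OCT1-only promoter windows with the highest folds had no octamer, and the first pair of these is shown to let their sequence be compared with the stretches above. They are printed from position -150 to position 30 of the gene start on the strand of the gene, with 3 motifs in capitals on either strand: the CRE core TGACGTC, the SP1 motif GGGCGG and the NFY motif CCAAT.
DDX51: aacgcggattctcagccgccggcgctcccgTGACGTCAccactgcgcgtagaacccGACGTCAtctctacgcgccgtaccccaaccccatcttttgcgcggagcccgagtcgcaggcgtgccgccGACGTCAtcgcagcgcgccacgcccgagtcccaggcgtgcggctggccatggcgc
DOLPP1: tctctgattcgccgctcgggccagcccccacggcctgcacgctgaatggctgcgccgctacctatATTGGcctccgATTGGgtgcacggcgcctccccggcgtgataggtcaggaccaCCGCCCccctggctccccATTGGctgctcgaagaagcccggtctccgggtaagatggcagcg

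The first stretch (chr12:132144290-132144469, minus strand) is the shared promoter of DDX51, an RNA helicase gene, and NOC4L, a gene of ribosome assembly that is read in the other direction. Its OCT1 fold was 40.7 with a pileup of 97 tags, and the summit lay 86 bases upstream of DDX51 and 52 bases upstream of NOC4L. It holds 3 CRE cores that do not overlap. Windows with 3 or more such cores were counted after this one was seen. They were 4 of the 1796 OCT1-only windows (DDX51, NOC4L, JARID2 and NSMF, the first pair from 1 peak), 0 of the 4961 shared windows and 9 of all 34961. The second stretch (chr9:129080961-129081140, plus strand) is from DOLPP1, whose product recycles the lipid carrier of N-glycosylation. Its OCT1 fold was 29.4, the summit lay 120 bases upstream of the start, and the stretch holds 3 CCAAT boxes in reverse orientation and 1 GGGCGG in reverse.

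Within OCT1-only promoters, some motifs but not all were more frequent in the windows with the highest OCT1 fold, a comparison that carries no test. Windows were ordered by fold and split into 3 equal groups. From the weakest to the strongest group CCAAT was in 32.1%, 34.3% and 43.9% of windows, and CACGTG in 9.68%, 10.9% and 15.0%. TGACGTCA was in 3.34%, 5.35% and 6.01%, and GGGCGG in 79.0%, 83.8% and 85.8%. CCGGAAG was in 24.0%, 28.6% and 27.2%. The octamer was in 1 of 599, 5 of 598 and 6 of 599 windows. The remaining motifs did not rise in every step. TGCGCATGC was in 5.84%, 4.68% and 6.01%, AAGATGGC in 3.51%, 7.69% and 6.18%, and TATAAA in 1.67%, 2.68% and 1.84%. TGANTCA fell, from 1.84% to 1.34% and 0.835%, and ATGCATAT was in 0, 0 and 2 windows.

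A larger share of OCT1-only than of shared summits lay near a gene start. Off the 1 chromosome without promoter windows, 2400 of 4704 OCT1-only summits (51.0%, 49.6 to 52.5) were within 1 kb of a gene start, against 5792 of 17973 shared summits (32.2%). Of the 2400, 53.25% lay upstream of the start, with a median position of -12.5 bp (quartiles -112 and 125 bp). Of the shared summits near a start, 69.9% lay upstream, with a median of -72 bp (quartiles -153 and 24 bp). A similar portion of each was within 250 bp of the start, 74.4% and 74.2%. Starts on both strands lay near the summit in 29.8% (28.0 to 31.7) of OCT1-only and 26.2% (25.1 to 27.3) of shared summits with a start. Nearly as many OCT1-only summits lay after the start as before it, whereas shared summits stood mostly before it.

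**Figure D3:**
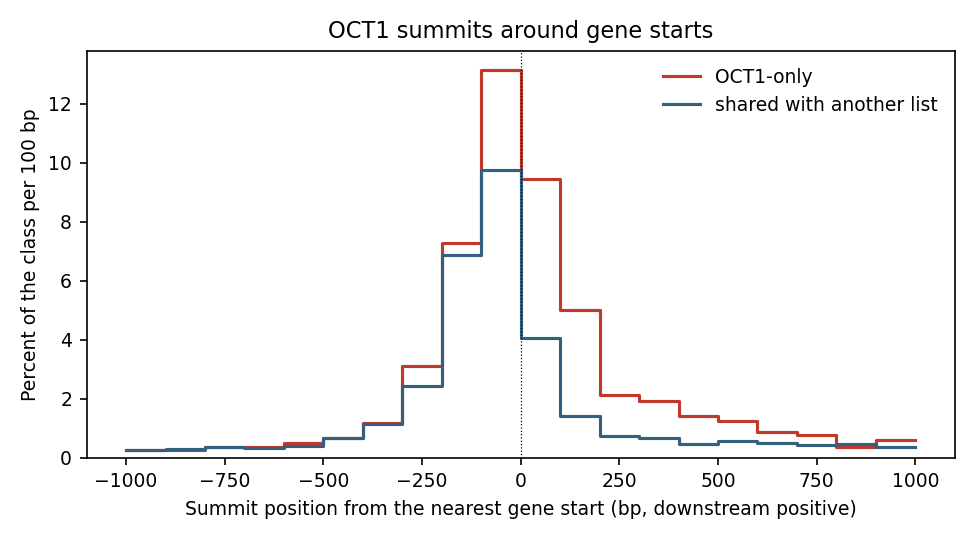
Lines give the percent of OCT1-only and of shared OCT1 summits per 100 bp of distance from the nearest gene start (downstream positive). Both classes peak just upstream of the start, and the OCT1-only line lies above the shared line in the first 800 bp downstream of it.

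OCT1-only peaks were weaker in pileup than shared peaks and close to them in median fold. As the values come from the list that defined the class, they are a description. The median pileup was 16 tags (quartiles 12 and 22) against 27 (20 and 41) for shared peaks, and the median width was 268 against 335 bp. The median fold was nearly equal, 5.58 (quartiles 4.57 and 7.35) against 5.66 (4.27 and 8.24). The fold divides by the control, and the control pileup implied by pileup and fold had a median of 1.799 tags at OCT1-only and 3.85 tags at shared peaks. It was at its lowest value, the genome-wide floor of the caller, in 27.1% of OCT1-only and 3.92% of shared peaks. The median −log10 q was 7.02 against 11.0. A fold over 10 was reached by 499 OCT1-only peaks (10.1%) and 3075 shared peaks (16.5%), and a fold over 20 by 50 and 654.

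The share of OCT1 peaks in no other list fell with pileup in every step. With the OCT1 peaks split into 10 equal groups, 62.7% were OCT1-only in the lowest group (8 to 13 tags) and 5.18% in the highest (61 to 337 tags). By fold there was no such trend: the share was 11.1% in the lowest group, 26.9% in the sixth and 12.3% in the highest. OCT1-only regions at gene boundaries had a median fold of 5.85, those inside genes 5.40 and those between genes 5.04. Among OCT1 peaks with −log10 q over 5, the boundary share was 58.2% for OCT1-only and 37.4% for shared peaks, and the octamer share of promoters was 0.779% and 3.23%. In the stronger 50% of each class by fold, the boundary share was 61.5% and 39.6%.

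**Figure D4:**
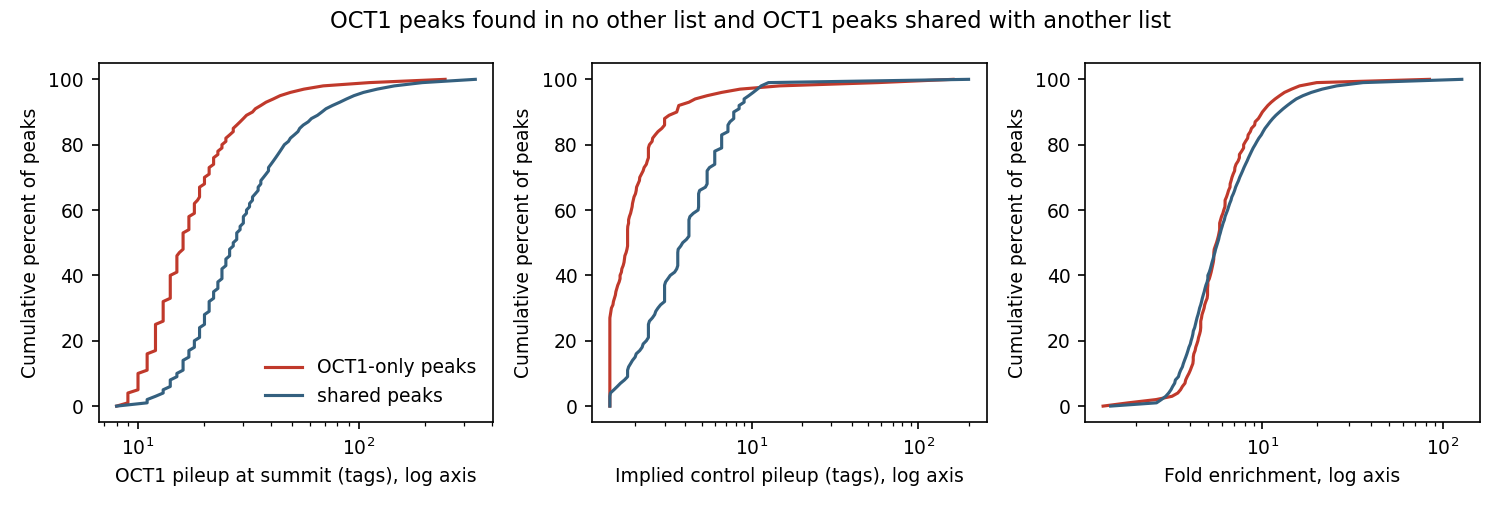
Curves give the cumulative percent of OCT1-only and shared OCT1 peaks by pileup, implied control pileup and fold enrichment, each on a log axis. OCT1-only peaks lie to the left in pileup (median 16 against 27 tags) and in the control (1.799 against 3.85), and the fold curves cross near the median (5.58 and 5.66) and part at the top, with 90th percentiles of 10.0 and 12.5.

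Many OCT1-only regions had another list's peak beside them. The nearest summit of any other list was a median of 1063 bp away, and by list the median was 2381 bp for OCA-B, 2564 for EP300, 4098 for OCT2, 10812 for CREBBP and 11040 for MED1. The nearest list was EP300 for 35.5% of regions, OCA-B for 29.4%, OCT2 for 23.1%, MED1 for 6.12% and CREBBP for 5.81%. At 1519 regions (30.9%) at most 250 bases lay between the OCT1 peak and another peak, and 78.1% of these were at gene boundaries. At 1292 regions (26.3%) the nearest peak was over 10 kb away, and 19.7% of these were at gene boundaries. Over 100 kb of free sequence surrounded 363 regions, 4.13% of them at boundaries. The rule of 1 common base draws a line between near equals: 188 OCT1-only regions ended within 20 bases of another peak (median fold 5.73, 79.3% at boundaries), and 188 shared peaks had 1 to 20 bases in common with one (median fold 5.66, 76.6%).

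The strongest OCT1-only region at a gene boundary lay upstream of PKNOX1, which encodes a TALE homeodomain protein, on chromosome 21 from 42973838 to 42974742. Its fold was 84.1 with a pileup of 223 tags, its summit lay 317 bases upstream of the start, and the nearest other peak (CREBBP) began 1035 bases away. After the DDX51 and NOC4L promoter came MXD4 (31.1), a repressor of the MYC network, DOLPP1, SLC45A4 (28.2), a solute carrier gene, and PRKACA (25.3), the catalytic subunit of protein kinase A. Then followed PGP (24.5), a phosphoglycolate phosphatase gene, and GID4 with ATPAF2 (23.7), an E3 ligase subunit and an assembly factor of the mitochondrial ATP synthase. The centrosome gene CEP131 and ANKRD39 both had a fold of 22.8. SSNA1 with ANAPC2, a subunit of the anaphase-promoting complex, had 22.4. Of these 11 regions, 5 had no other peak summit within 1 kb (PKNOX1, MXD4, SLC45A4, ANKRD39, and SSNA1 with ANAPC2). PGP and GID4 with ATPAF2 had summits of all 5 other lists within 1 kb and still shared no base with them.

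The strongest regions away from gene boundaries, of which 11 are described, stood alone. None had another list's summit within 1 kb, and the nearest other peak was between 4084 bases (LHX5) and 444846 bases (POTED) away. Inside genes lay the regions in CCNB3 (fold 46.9), the gene of cyclin B3, and in GPC5 (35.6), a glypican gene. Another lay in DAP3 (25.3), a gene of the mitochondrial ribosome. The region nearest to FAM174A (38.2) was also classed as inside a gene, but not in FAM174A. Its summit lay 42005 bases from FAM174A and 41874 bases downstream of the start of the lncRNA gene FAM174A-DT. Between genes lay regions nearest to LHX5 (38.7), CDH20 (35.7), GOLGA6L6 (34.9), GRIK2 (27.9), ETS1 (27.6), TFAP2B (26.8) and POTED (25.7). LHX5, ETS1 and TFAP2B encode transcription factors. The distances were long for several of them, from 10617 bases (LHX5) to 953785 bases (GRIK2), so the nearest gene is a landmark only. GOLGA6L6 and POTED belong to multicopy families whose reads are hard to place. The sequence under summits away from promoters was not analysed here.

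An OCT1-only peak lay within 1 kb of either end of 2785 of 19974 protein-coding genes, a background of 13.9%. A shared OCT1 peak lay there for 6277 genes (31.4%), and 687 genes had both. The region could be given to an end for 2315 of the 2785 genes, and it was the start in 2178 of them (94.1%). Among lncRNA genes 755 of 18177 (4.15%) had an OCT1-only peak. The gene lists below are described by their counts beside these values.

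Genes of glucose use had the highest share with an OCT1-only region of the lists examined. Of 24 members, 12 (50%, 29.1 to 70.9) had one, 11 of them at the start of the gene, with a median fold of 6.59. They were PGAM1 (12.8), ALDOA (10.2), PKM (8.53), ENO1 (7.75), GPI (7.25), TPI1 (6.74) and PFKL (6.44), which are enzymes of glycolysis, SLC2A1 (5.40, at the far end), the main glucose transporter, PDHA1 (5.40) and PDK1 (4.76) of the pyruvate dehydrogenase step, and TALDO1 (4.77) and TKT (3.41) of the pentose phosphate pathway. PKM, TPI1, SLC2A1 and TKT had a shared OCT1 peak as well. A shared peak was found at 11 of the 24 (45.8%). Of the 19 members with any OCT1 peak, 8 (42.1%, 20.3 to 66.5) had OCT1-only peaks and no shared one, beside 25.1% of the 8375 protein-coding genes with OCT1.

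Genes of the oxidative stress response came next, with 8 of 24 (33.3%, 15.6 to 55.3), all at the start. KEAP1 (12.8) encodes the sensor that holds NRF2 in check. PRDX2 (11.7), PRDX3 (3.91), GPX1 (5.10) and GPX4 (10.0) are peroxidase genes, and SOD2 (10.6) encodes the mitochondrial superoxide dismutase. TXN (5.49) encodes thioredoxin and GCLC (5.43) the enzyme that starts glutathione synthesis. Only GCLC among the 8 also had a shared OCT1 peak. Of the 17 members with any OCT1 peak, 7 (41.2%, 18.4 to 67.1) had OCT1-only peaks alone. The lower interval bounds of both lists for this last share lie below the 25.1% of all genes with OCT1.

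The lists of general cell functions had shares from 28.1% down to 7.69%, on both sides of the background of 13.9%. RNA polymerase subunits had 9 of 32 (28.1%, 13.7 to 46.7), led by POLR3K (15.9) and POLR3D (11.4) of RNA polymerase III and POLR1D (9.04). Their interval overlapped that of the oxidative stress list (15.6 to 55.3). DNA replication and mitosis genes had 7 of 33 (21.2%), led by the clamp loader gene RFC2 (15.4) and the helicase gene MCM7 (13.5). DNA repair genes had 8 of 38 (21.1%), led by the uracil glycosylase gene UNG (11.4) and FANCA (7.27). Mitochondrial ribosomal protein genes had 14 of 77 (18.2%; MRPL20 13.8, MRPL57 12.6) and oxidative phosphorylation genes 14 of 83 (16.9%; NDUFV3 11.3, UQCRC1 10.5). Translation initiation genes had 9 of 55 (16.4%; EIF5 14.0), splicing genes 12 of 79 (15.2%; SF3B2 16.8), ZNF zinc finger genes 77 of 509 (15.1%; ZNF554 17.5) and cytosolic ribosomal protein genes 12 of 84 (14.3%; RPL8 13.3). Mediator subunits had 4 of 33 (12.1%; MED4 10.3) and proteasome subunits 3 of 39 (7.69%; PSMD11 10.5). All of these lists had a shared OCT1 peak at 44.8% of genes (zinc fingers) or more, up to 82.1% (cytosolic ribosomal proteins).

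B cell genes with OCT1 mostly had shared peaks, as did most genes with OCT1. Of the members with OCT1, OCT1-only peaks alone were found at 1 of 21 B cell identity genes (4.76%, 0.120 to 23.8), 3 of 19 germinal centre genes (15.8%, 3.38 to 39.6) and 3 of 15 plasma cell genes (20%, 4.33 to 48.1), beside 25.1% over all genes. Proteasome (7.14%), cytosolic ribosomal protein (9.21%) and splicing genes (10.6%) were also low. Of 24 B cell identity genes, 2 (8.33%) had an OCT1-only region, SPIB (4.97) and CR2 (4.18), and 20 (83.3%) had a shared peak. Germinal centre genes had 4 of 24 (16.7%): FOXO1 (5.06), SPIB, HDGFL3 (4.82) and the methyltransferase gene EZH2 (3.88). B cell receptor signalling had 1 of 20 (VAV2, 5.40), and plasma cell genes had 3 of 20 (15%), SSR4 (11.6), SEC61A1 (5.27) and ERN1 (5.08), which act in the endoplasmic reticulum. None of the folds except that of SSR4 exceeded the median fold over all genes with an OCT1-only peak (6.23). Of genes of other cell types, 2 of 20 T cell genes had one, CD3G (9.57) and LAT (5.36), and none of the 20 myeloid, 20 erythroid, 20 liver and 20 neuron genes did, which with 0 of 20 allows up to 16.8% for each (upper bound of the exact interval).

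The classic OCT1 targets were almost absent from the class. A shared OCT1 peak lay within 1 kb of all 26 genes of U-type small nuclear RNAs and their relatives. Of these 26, 0 had an OCT1-only peak, which allows up to 13.2%. Genes of other biotypes had one at 232 of 20947 (1.11%), so 0 of 26 is near that share. Among genes with any OCT1 peak, OCT1-only peaks alone were found at 0 of 26 small nuclear RNA genes and 0 of 59 histone genes. The share over protein-coding genes with OCT1 was 25.1%. That is a like comparison for the histone genes only, as small nuclear RNA genes are not protein-coding. Of 69 replication-dependent histone genes, 59 (85.5%) had a shared peak and 1 an OCT1-only peak, H2BC5 (3.42), which also had a shared one. Olfactory receptor genes, which are silent outside the nose, had neither at any of 390. Transfer RNA genes had an OCT1-only peak at 21 of 423 (4.96%, 3.10 to 7.49) and a shared one at 128 (30.3%). Of the 21, 16 lie within 1 kb of a single tandem stretch on chromosome 1, described with the groups of regions, so they are not separate cases and the interval is too narrow. Several of these families have copies of nearly the same sequence, so the count for any one copy is uncertain.

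**Figure D5:**
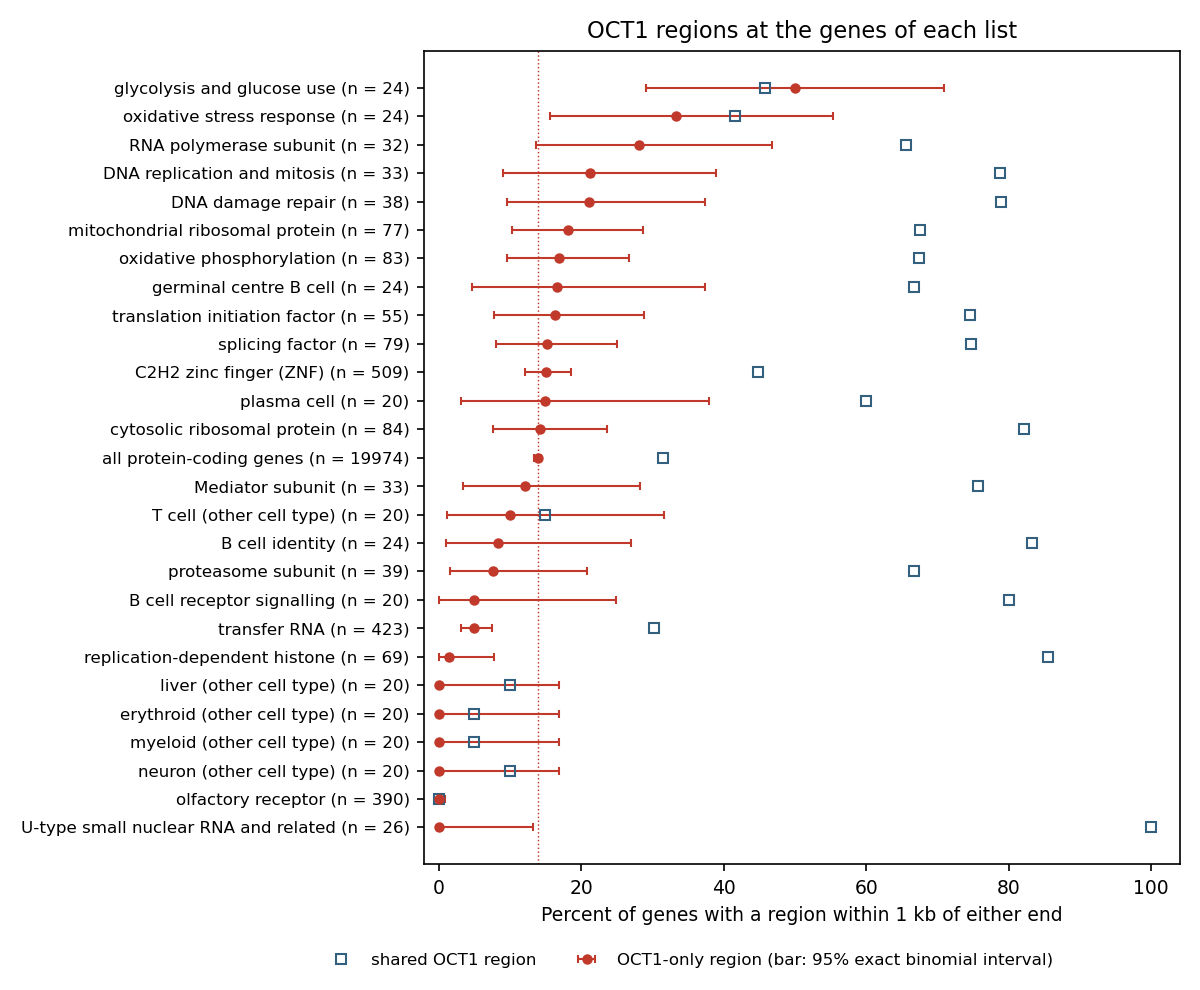
Red points give the percent of genes in each list (number in brackets) with an OCT1-only region within 1 kb of either end, with exact 95% binomial intervals, and open squares the percent with a shared OCT1 region. The dotted line marks all protein-coding genes (13.9%): glycolysis and oxidative stress genes lie furthest to its right at 50% and 33.3%, and small nuclear RNA genes have 0% OCT1-only and 100% shared regions.

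Most OCT1-only regions stood singly, and some lay in groups. With regions within 10 kb of each other joined, 54 groups held 4 or more, 362 regions in all (7.36%). The group on chromosome 19 from 1244336 to 1280261 had 15 regions over ATP5F1D, MIDN, CIRBP and FAM174C, with a highest fold of 14.3. In between lay 12 OCA-B, 12 EP300, 7 OCT2, 7 CREBBP, 4 MED1 and 4 shared OCT1 peaks, none in contact with the 15. On chromosome 1 from 161447011 to 161470487, 8 regions lay over a stretch with 18 transfer RNA genes, with a highest fold of 12.5 and no peak of another list. This was the only group of 4 or more that covered transfer RNA genes. It holds TRD-GTC2-5, TRE-CTC1-5 and TRG-TCC2-5 (12.5 each), the transfer RNA genes with the highest OCT1-only folds.

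Some other groups lay where the control was high. Ribosomal RNA genes were covered by 4 groups. The 3 on chromosome 21 between 8204154 and 8449156 had 14, 11 and 14 regions with median implied controls of 7.68, 7.84 and 10.7 tags, and the 1 on chromosome 1 had 7 regions with 2.13 tags. The largest group, 25 regions on chromosome 5 from 49600585 to 49646330, had a median implied control of 8.997 tags, and the 12 regions on chromosome 1 from 143239423 to 143265932 had 89.1 tags, beside 1.799 over all OCT1-only regions. An implied control over 10 was found at 774 shared OCT1 peaks (4.15%) and at 131 OCT1-only regions (2.66%). These 131 regions had a median fold of 2.0006, and 1.53% of them were at gene boundaries. Without them the boundary share of the class was 56.0%, and without groups of 4 or more it was 57.3%. By chromosome the share of OCT1 peaks that were OCT1-only ran from 16.0% (chromosome 6) to 31.1% (chromosome 21, 26.4 to 36.1). Chromosome 21 was at 20.9% without its 48 regions in groups of 4 or more.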

How the data were processed

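ChIP-seq libraries of OCI-Ly7 cells were analysed from the peak lists the authors deposited for 6 factors, 1 library each. Per the submitters' processing notes, CASAVA 1.8.2, Bowtie2 2.3.2.2, SAMtools 1.3.1, MACS2 2.1.1.20160309 and hg38 were used. Per the file headers, each list was called against 1 control (37517450 tags after filtering) at a q threshold of 0.05. The deposited values are the pileup signal at the summit, −log10 p and −log10 q, and the fold enrichment ratio, as the authors' peak caller wrote them. They were used within the OCT1 list only, except in the alternatives that required −log10 q over 5 in all 6 lists.

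Computed here were the merge (Python 3.11.15, pandas 2.3.3, SciPy 1.17.1), gene and promoter positions (RefSeq, GRCh38.p14, 19974 protein-coding genes, no promoter windows for chromosome 8), motif matches, exact intervals, and the implied control, (pileup + 1)/fold − 1. A Poisson p from this control was within 0.1 of the deposited −log10 p for 99.6% of OCT1 peaks. The merge, distances and motif search were tested on simulated data. With 1 library per factor no test between factors was made.

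Named were the 12 OCT1-only regions with the highest fold at gene boundaries and the 12 elsewhere (−log10 q over 5), and up to 4 members of each list by OCT1-only fold, and 1 region of each set of 12 is not reported here. The remaining members of the glucose and oxidative stress lists were named after their values were seen. The design asked for sequence around every summit where a genome was given. Only promoter windows were searched. Members and lists were chosen with earlier results of these data known. Alternatives changed the contact rule, the q threshold, the lists, the boundary distance and the motif. Contigs outside chromosomes 1 to 22 and X were left out.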

Additional observations from a re-analysis of the deposited data

Results flagged for a closer look

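OCT1 peaks were also present in data that no comparison used, the alternate, unlocalised and unplaced contigs of the genome build. Of the 783 OCT1 peaks there, 248 (31.7%) had no peak of another list in contact, on 102 contigs, with a median fold of 5.40. These contigs often repeat sequence of the chromosomes, so a read can fit more than 1 place.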

How the results depend on the processing

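The number of OCT1-only regions was 4921 and stayed within 1.5 times of it (3404 to 6003) in 10 of the 12 alternatives. It was 2266 with no other peak allowed within 1000 bp and 8150 when an OCT1 peak counted as shared only if other peaks covered 50% or more of it. The gene boundary share of 54.6% was 45.99% with a gene end within 500 bp and 67.6% within 5 kb, 29.0% with no other peak within 1000 bp, 44.0% with none within 250 bp, 58.2% for OCT1 peaks with −log10 q over 5, 56.5% with that threshold on all 6 lists, and 61.5% in the stronger 50% by fold. It was 56.0% without implied controls over 10 and 57.3% without groups of 4 or more. In these 9 alternatives it stayed above the share of the remaining OCT1 peaks, except with no other peak within 1000 bp, where those were at 41.1%. The octamer share ran from 0.552% to 1.11% over its 6 alternatives, below shared promoters in the 5 of these for which that value was computed, and the number of genes from 2219 to 2711. The 250 bp and 1000 bp rules kept 20 and 17 of the 24 regions chosen by fold. The lists left out other than EP300, the groups, the implied control, the 250 bp boundary share, the boundary share at −log10 q over 5 in all lists, and the subsets of promoters were chosen after seeing the data. No paired analysis was possible because each factor had 1 library and no result comes from a test. Of the OCT1 peaks lowest in pileup, 62.7% were in no other list. The part of library depth in this was not tested, and absence from a list is not absence of the factor.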
